A study of Mus musculus with 10 samples.

Results

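Peaks of N6-methyladenosine (m6A) on transcripts made of 1 exon were followed through the adipogenesis of 3T3-L1 cells. Members were the rows whose deposited annotation began with Exon and read exon 1 of 1 in the peak lists of DMSO Pre, DMSO MCE, DMSO Diff and Rhein MCE. They numbered 913 of 13965 rows in the 4 lists, and fell into 534 peaks on small nuclear RNA (snRNA) copies, 224 on coding transcripts and 155 on other noncoding transcripts.

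m6A is the most common internal modification of mammalian messenger RNA, and most of it is laid by a complex built on METTL3 and METTL14 that favours the DRACH motif, of which GGAC is a frequent core. A second enzyme, METTL16, methylates U6, the spliceosomal snRNA that pairs with the 5′ splice site, within its ACAGAGA box. U6 is transcribed by RNA polymerase III, and mammalian genomes hold many near-identical copies of it, most of them pseudogenes. Intronless coding genes include replication histones, many immediate-early genes and several C/EBP and SOX transcription factors. Exon junction complexes keep m6A away from splice junctions in spliced messages, and intronless messages do not carry them.

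Total RNA from the mouse preadipocyte line 3T3-L1 was immunoprecipitated with an m6A antibody, and each condition had 1 immunoprecipitated library and 1 input library, 10 in all. Cells were sampled as preadipocytes (DMSO Pre), at the stage of mitotic clonal expansion (DMSO MCE) and as mature adipocytes (DMSO Diff). Rhein, a plant anthraquinone, was given at 20 µM from day 0 to day 3, and DMSO, its vehicle, was given to the controls. Cells left confluent were induced with a cocktail of isobutylmethylxanthine, dexamethasone and insulin, so every list after DMSO Pre came from induced cells. The labels number the source name upward from 3T3-L2, whereas the study's methods name the line 3T3-L1. No expression level stands in the lists, so the stage labels were not checked against adipocyte markers.

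There were no replicate libraries, so no test between conditions was possible and no p-value is given. The 95% Wilson intervals below cover counting error over peaks only, and peaks of 1 list share their libraries. The lists give no read numbers, so the depth behind each peak is unknown. The list deposited for Rhein Diff held all 231 members of Rhein MCE at identical coordinates, and the pair was counted as 1 list. The lists had 3071 and 3069 rows, so the stage that the Rhein MCE list represents is uncertain. Below, the clonal expansion lists are those labelled MCE, and the label was not checked. Each row carries 1 score, whose lowest and highest values were 4.19 and 735 in DMSO Pre. It was used only to rank rows, and a row above 33.2, which on a −log2 scale stands for 1e-10, is called strong. The lists gave no error for a score, so scores of different lists are set side by side without a comparison of their size.

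Most members lay on copies of U6. Gm22306 and Gm23092 each lay 1 edit from Rnu6, the annotated U6 gene of the mouse, Gm23269 lay 3 edits away, Gm23412 5 and Gm24144 6. The ACAGAGA box was intact in Gm22306, Gm23092 and Gm24144, and its letters were not kept in Gm23269 or Gm23412. Gm24144 is 111 bases long against 107 for Rnu6.

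Coding members were spread along longer messages, and the first 4 stretches below are the bases that peaks of all 4 lists had in common. The last is the 50-base span of the Cebpb peak with the top score of Rhein MCE. Sequences are from RefSeq GRCm38.p6, read 5′ to 3′ on the transcript's strand, and capitals mark GGAC.
Thbd, chr2:148407166-148407265, minus strand: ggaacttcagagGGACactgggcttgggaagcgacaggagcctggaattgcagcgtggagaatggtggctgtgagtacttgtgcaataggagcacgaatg
Cenpb, chr2:131179472-131179621, minus strand: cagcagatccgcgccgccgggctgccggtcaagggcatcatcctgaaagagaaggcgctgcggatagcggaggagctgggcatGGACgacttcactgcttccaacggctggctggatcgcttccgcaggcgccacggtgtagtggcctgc
Cd248, chr19:5069203-5069402, plus strand: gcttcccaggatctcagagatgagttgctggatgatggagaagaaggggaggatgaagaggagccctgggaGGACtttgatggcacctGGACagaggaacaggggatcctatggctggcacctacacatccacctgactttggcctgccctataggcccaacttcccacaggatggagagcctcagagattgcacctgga
Irf2bp1, chr7:19004944-19005168, plus strand: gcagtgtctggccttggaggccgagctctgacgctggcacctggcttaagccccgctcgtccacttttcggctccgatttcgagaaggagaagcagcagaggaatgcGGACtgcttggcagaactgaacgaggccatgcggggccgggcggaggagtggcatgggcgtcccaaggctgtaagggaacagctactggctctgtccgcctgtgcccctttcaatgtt
Cebpb, chr2:167689840-167689889, plus strand: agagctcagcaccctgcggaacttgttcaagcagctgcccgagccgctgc

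Single-exon transcripts took a larger share of the DMSO Diff list than of the DMSO MCE list. In DMSO Pre, 189 of 2824 peaks were members, or 6.69% (95% interval 5.83 to 7.67). In DMSO MCE, 255 of 5128 were members, or 4.97% (4.41 to 5.60). In DMSO Diff the figure was 238 of 2944, or 8.08% (7.15 to 9.12), and in Rhein MCE 231 of 3069, or 7.53% (6.65 to 8.51). DMSO MCE thus had the most members in number and the smallest share, and its interval lay below those of the other lists. Among the rows annotated to exons, members made up 13.7%, 11.1%, 16.9% and 16.8% in the same order.

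As a share of the list, the snRNA class differed most between lists, and by number the coding class did. Peaks on snRNA copies numbered 114, 122, 162 and 136 in DMSO Pre, DMSO MCE, DMSO Diff and Rhein MCE, which was 4.04%, 2.38%, 5.50% and 4.43% of each list. Peaks on coding transcripts numbered 36, 93, 41 and 54, or 1.27%, 1.81%, 1.39% and 1.76% of each list. The coding share was highest in DMSO MCE (1.48 to 2.22), but its interval overlapped that of DMSO Pre (0.922 to 1.76), whereas the snRNA interval of DMSO MCE (2.00 to 2.83) lay below that of DMSO Pre (3.37 to 4.83). Among the members themselves, snRNA copies made up 60.3% of DMSO Pre, 47.8% of DMSO MCE, 68.1% of DMSO Diff and 58.9% of Rhein MCE. Other noncoding members stayed between 35 and 41 in every list.

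**Figure D1:**
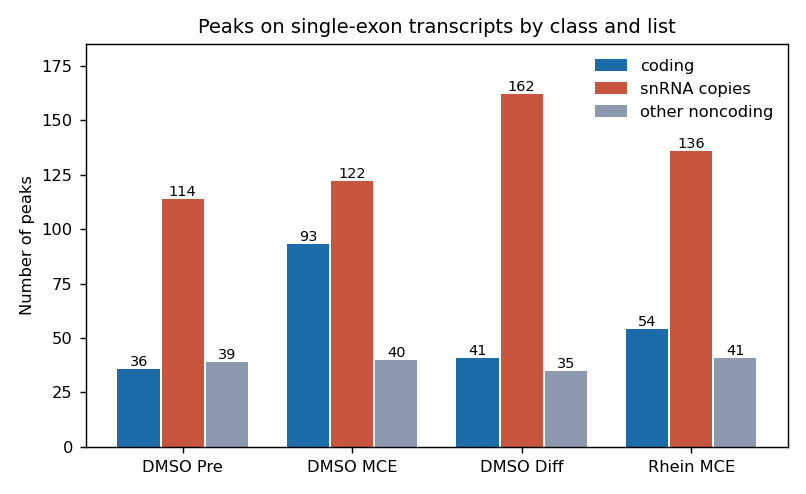
Number of peaks on single-exon transcripts (y axis) by class in each of the 4 peak lists (x axis). Coding peaks reach 93 in DMSO MCE against 36 in DMSO Pre, and peaks on small nuclear RNA copies reach 162 in DMSO Diff.

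The snRNA class was nearly all U6. Of its 534 peaks, 505 lay on 203 U6 genes, 7 lay on 5 U1 genes, and 22 lay on 11 genes for which RefSeq gave no U family. U6 peaks numbered 110, 113, 154 and 128 in DMSO Pre, DMSO MCE, DMSO Diff and Rhein MCE. U1, which pairs with the 5′ splice site before U6 does, is annotated in RefSeq at 123 loci, and its highest peak had a score of 9.79 on Rnu1b2 in DMSO MCE. No member lay on any of the 72 U7, 33 U2, 16 U6atac, 12 U4, 11 U5, 5 U11 or 4 U12 loci. Of the 11 unassigned genes, Gm26226 and Gm25008 had a peak in all 4 lists, with scores of 8.35 to 16.8 and of 6.49 to 16.7.

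A peak on a U6 copy covered almost the whole copy. Of 495 U6 peaks on the copy's own strand, 483 spanned exactly 100 bases, and all 483 began at the lower genomic coordinate of the copy. They left a median of 7 bases uncovered at the higher coordinate, whichever strand the copy lay on: 259 were on the plus strand and 224 on the minus strand. Peak edges on these copies therefore mark the annotated transcript and do not place a modified base inside it.

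Copies close in sequence to Rnu6 had a peak far more often than divergent ones. RefSeq lists 712 U6 copies of 102 to 112 bases, and 203 of them had a peak on their own strand in at least 1 list. All 43 copies identical to Rnu6 had one (100%, 91.8 to 100). The share was 55 of 67 at 1 or 2 edits (82.1%, 71.3 to 89.4) and 43 of 74 at 3 to 5 edits (58.1%, 46.7 to 68.7). It fell to 41 of 120 at 6 to 10 edits (34.2%, 26.3 to 43.0), 17 of 159 at 11 to 20 (10.7%, 6.78 to 16.5) and 4 of 249 at 21 to 46 (1.61%, 0.626 to 4.06). The median share of a copy's 40-base windows that occurred once in the genome was 0% at 0 to 2 edits, 32.4% at 3 to 5, 75.0% at 6 to 10 and 100% beyond.

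**Figure D2:**
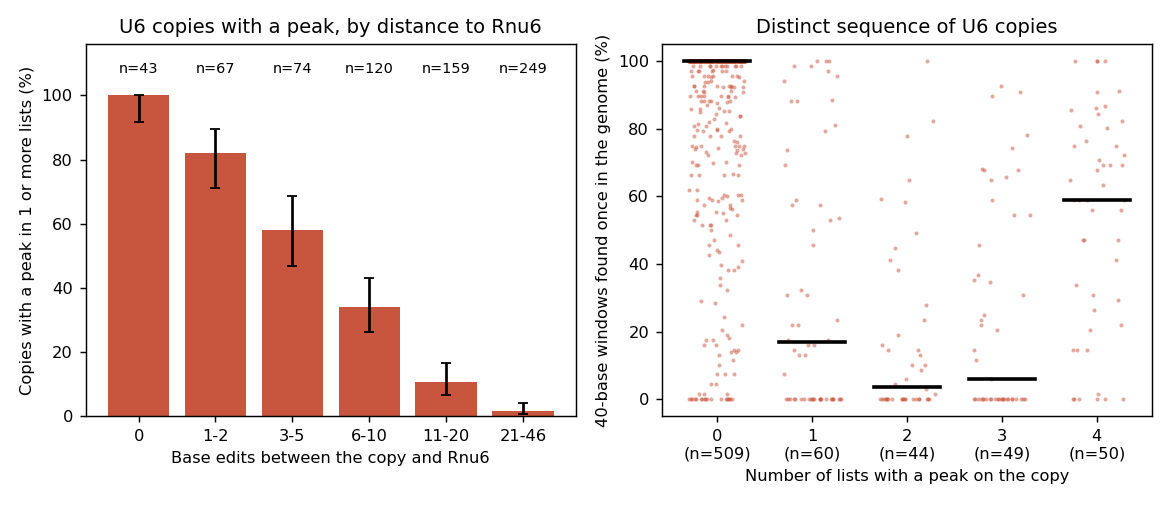
Left, share of RefSeq U6 copies with a peak in percent (y axis, with 95% Wilson intervals) by number of edits from Rnu6 (x axis), which runs from 100% of identical copies to 1.61% of copies at 21 to 46 edits. Right, share of the 40-base windows of each copy found once in the genome (y axis; 1 point per copy, lines at medians) by number of lists with a peak (x axis), with medians of 100% for copies in no list, 3.68% for those in 2 and 58.8% for those in 4.

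Windows of 40 bases were used because fragments of 40 to 60 bases had been selected, so that a window found once marks a place where a read could be assigned to 1 copy. A median of 20.6% of windows occurred once for copies with a peak, against 100% for copies without one. Of the 92 copies with no such window, 74 had a peak, or 80.4% (71.2 to 87.3), whereas 8 of the 315 copies whose windows all occurred once did, or 2.54% (1.29 to 4.93). In the first group a 40-base read from inside the copy had other exact matches in the genome, so its sequence alone could not assign it. Reads reaching into the flanking bases were not examined. The part played by read placement in the shares by edits was not tested.

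The ACAGAGA box was intact in 188 of the 203 copies with a peak (92.6%) and in 292 of the 509 without (57.4%). Copies with a peak were also nearer to Rnu6, at a median of 3 edits against 19, and box and distance were not separated. By number of lists, the box was intact in 96.7%, 97.7%, 95.9% and 80.0% of copies in 1, 2, 3 and 4 lists. GGAC occurred in 2 of the 203 (0.985%) and in 63 of the 509 (12.4%). Rnu6 itself holds the box and lacks GGAC. A host gene on the same strand was present for 17.2% of copies with a peak and 19.3% of those without.

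A set of 50 U6 copies had a peak on their own strand in all 4 lists, 49 in 3, 44 in 2 and 60 in 1. The 50 were not those nearest to Rnu6: their median distance was 4.5 edits, and a median of 58.8% of their 40-base windows occurred once in the genome, against 3.68% for copies found in 2 lists and 5.88% for those in 3. Only 2 of the 43 identical copies were in all 4 lists. Identical copies cannot be told apart by reads that lie inside them, yet 22, 10, 34 and 27 of them had a peak in DMSO Pre, DMSO MCE, DMSO Diff and Rhein MCE. Rnu6 itself had a peak in Rhein MCE alone, with a score of 36.6.

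The median score was higher for the 50 recurrent copies in each list. In DMSO MCE the 50 had a median score of 20.1, against 7.88 for the 59 other copies of that list. The corresponding medians in DMSO Pre, DMSO Diff and Rhein MCE were 10.9, 13.9 and 13.0, against 8.90, 10.7 and 9.96 for the other copies. The ranges of both sets overlapped in each list.

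Gm24144, which lies in a host gene on its own strand, had scores of 92.6, 119, 109 and 97.1 in DMSO Pre, DMSO MCE, DMSO Diff and Rhein MCE. Gm23412 had 86.4, 108, 99.6 and 91.9 in the same order. Both stood in the top 20 ranks of every list. Gm23412 did so without an intact box. Gm22306 had 43.2, 54.2, 68.7 and 61.2.

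Gm23269, also without an intact box, had the top score of the whole DMSO MCE list at 127, and 30.4, 59.1 and 12.4 in DMSO Pre, DMSO Diff and Rhein MCE. Gm23092, in which no 40-base window was found once, had scores of 41.7 and 109.6 in DMSO Pre and DMSO Diff, with no peak in either clonal expansion list. Gm23610, at 2 edits, had 9.82 in DMSO Pre, 11.3 in DMSO Diff and 79.5 in Rhein MCE.

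Between the clonal expansion lists, 78 of 177 snRNA genes had a peak in both, 42 in DMSO MCE alone of the pair and 57 in Rhein MCE alone. A gene missing from one list may have had reads below the caller's threshold, and neither list gives values for such genes.

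Coding members lay on 69 genes. The reference annotation has 2764 genes with a coding transcript of 1 exon, of which 1349 have no spliced transcript. Of the 69, 57 were single-exon in every transcript, and 12 (among them Ahnak2, Cebpd, Junb, Smcr8 and Rbm15b) also had a spliced one. DMSO MCE held 56 of the 69, Rhein MCE 36, DMSO Diff 29 and DMSO Pre 25.

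A single list supplied 28 of the 69 genes, 18 were in 2 lists, 10 in 3 and 13 in all 4. Of the 28, 21 were in DMSO MCE alone, 5 in Rhein MCE alone, and 1 each in DMSO Pre (Zfp830) and DMSO Diff (Gm9913). DMSO MCE is also the longest list. The 21 included the forkhead factor Foxc2, the histone kinase Haspin, the glycosyltransferase B3gnt9 and the sulfotransferase Chst14. They also included the immediate-early genes Ier5 and Ier5l and 5 histone genes. These counts are of members: B3gnt9, Chst14, Ier5, Ier5l and the histone gene H2afx had UTR rows in other lists, and Foxc2 and Haspin did not. With every row on the gene's own strand counted, 12 of the 69 genes had a peak in 1 list only. Hist1h4b, a member through a row on the opposite strand, is not among these 12. Of the 65 coding genes in either clonal expansion list, 27 were in both, 29 in DMSO MCE alone of the pair and 9 in Rhein MCE alone.

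Genes left out of a list as members often had a peak there under a UTR annotation. Counting every row on the own strand of these 69 genes, 35, 66, 41 and 47 had a peak in DMSO Pre, DMSO MCE, DMSO Diff and Rhein MCE. By that count 26 had one in all 4 lists. The rule takes rows called Exon, so a peak on the coding part that the annotation assigned to a UTR stayed outside. Junb, a subunit of the AP-1 factor, shows this. Its span of chr8:84977910-84978334 was a member in DMSO Pre (score 5.44) and DMSO Diff (20.95), and lay in rows called 5′ UTR in DMSO MCE (91.3) and Rhein MCE (61.1).

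**Figure D3:**
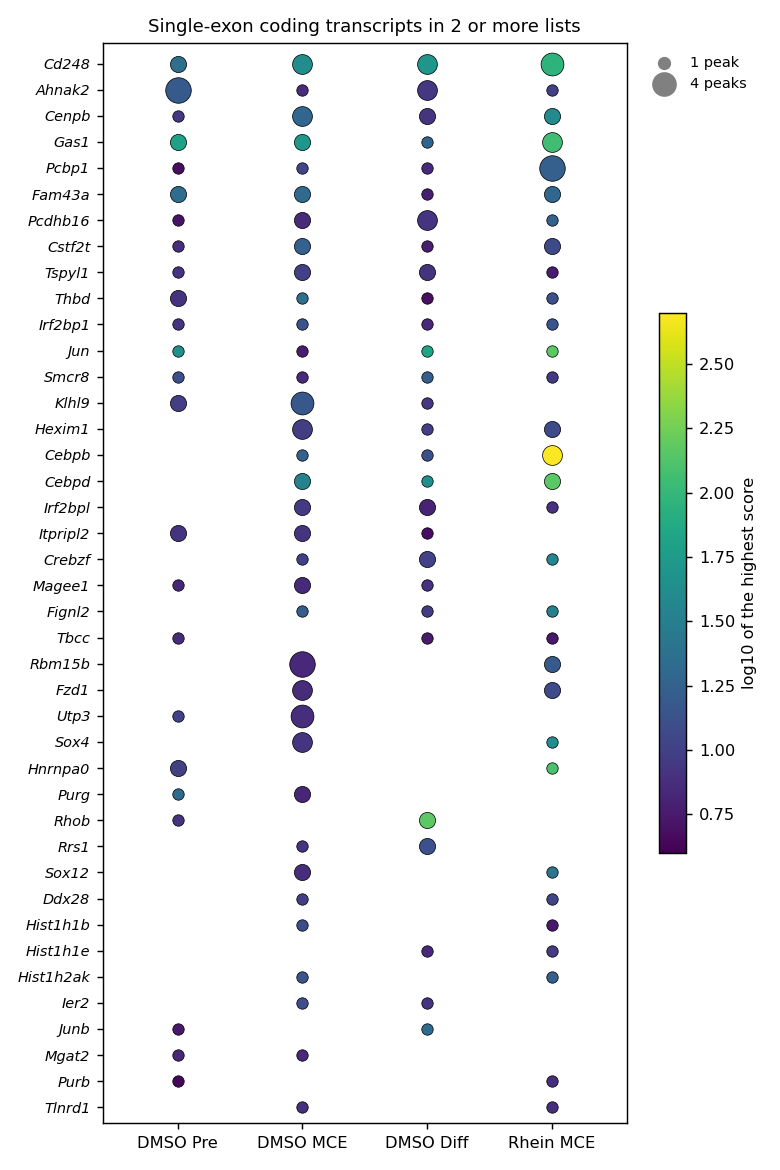
Coding genes with members in 2 or more lists (rows) in the 4 lists (columns), with the area of a point growing with the number of member peaks and its colour showing log10 of their highest score. No point means no member in that list, 13 genes have a point in every column, and the brightest point is Cebpb in Rhein MCE, at a score of 488.

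The C/EBP factors that start the adipogenic programme were absent from the members of DMSO Pre and had members in the 3 other lists, in the case of Cebpb in DMSO Diff through an opposite-strand row alone. Cebpb encodes the first of them to be induced. Its peak at chr2:167689840-167689889, just before the stop codon, had a score of 488 in Rhein MCE, rank 1 of 3069. The 3 DMSO lists had a peak overlapping these bases, but under 3′ UTR annotation, with scores of 32.9 in DMSO Pre, 38.8 in DMSO MCE and 65.0 in DMSO Diff. The Cebpb members of DMSO MCE and DMSO Diff were other peaks, and DMSO Pre had rows called 3′ UTR on this gene and no member.

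A second Cebpb peak on the plus strand in Rhein MCE, chr2:167689565-167689664, had a score of 129, and the member of DMSO MCE, chr2:167689290-167689564, had 18.1. The only Cebpb member of DMSO Diff (13.2) lay on the opposite strand, as did another row of Rhein MCE (63.2). Whether these rows reflect RNA of that strand was not tested. Cebpd, the partner induced alongside, had highest scores of 34.4, 43.4 and 146 in DMSO MCE, DMSO Diff and Rhein MCE. In DMSO Pre Cebpd had 1 row, called 3′ UTR, and no member. The third single-exon gene of the family had none in any list.

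All 6 single-exon genes of the AP-1 and immediate-early list had a member somewhere, against 69 of 2764 genes with a 1-exon coding transcript. This list was chosen with earlier results of these data known, so the count says nothing about the family. By list, 2, 4, 3 and 2 of them had a member in DMSO Pre, DMSO MCE, DMSO Diff and Rhein MCE. Jun, the core subunit of AP-1, was in all 4, with scores of 44.1, 5.83, 69.1 and 145 in DMSO Pre, DMSO MCE, DMSO Diff and Rhein MCE. No base was shared by all 4 peaks. Those of DMSO Pre and DMSO Diff overlapped at chr4:95050484-95050533, the Rhein MCE peak was chr4:95050734-95050958, and the DMSO MCE peak was chr4:95051134-95051258. Jun also had UTR rows in every list, among them 3 called 5′ UTR in DMSO MCE. Jund was a member only in Rhein MCE (33.3), but had UTR rows in DMSO MCE and DMSO Diff. Ier2 was a member in DMSO MCE (12.5) and DMSO Diff (8.45), and had a row called 3′ UTR in every list.

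Genes of growth arrest and cell shape were among the strongest coding members. Gas1, a membrane protein that rises in arrested fibroblasts, had its highest member score at 61.7, 52.8, 19.0 and 114 in DMSO Pre, DMSO MCE, DMSO Diff and Rhein MCE. A DMSO Diff row outside the members, chr13:60175355-60176154, had 57.6 over bases that the members of the other lists share. Rhein MCE had 3 member peaks. Rhob, a small GTPase that acts on the actin skeleton, had 148 in DMSO Diff, rank 6 of 2944, and 8.11 in DMSO Pre, and had no member in either clonal expansion list.

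Cd248, a glycoprotein of stromal cells and fibroblasts, had several peaks in each list. Its highest score was 22.8, 41.5, 50.4 and 90.4 in DMSO Pre, DMSO MCE, DMSO Diff and Rhein MCE. The stretch printed above, chr19:5069203-5069402, holds GGAC at 2 places and had scores of 22.8, 34.3, 50.4 and 6.86. A second stretch of the same gene, chr19:5068303-5068552, holds 5 and had 18.7, 41.5, 30.1 and 90.4.

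Other genes in all 4 lists had lower scores over the bases that all 4 lists shared. Irf2bp1, a partner of the repressor IRF2, had a peak starting at the same base in all 4, with scores of 8.34, 13.4, 6.92 and 14.5. Thbd, the thrombin receptor thrombomodulin, had 5.81, 22.9, 4.79 and 13.0 over its common bases. Cenpb, which binds centromeric DNA, had 8.78, 16.4, 8.41 and 9.36 there, and its highest peaks elsewhere reached 19.5 in DMSO MCE and 39.2 in Rhein MCE. Pcbp1, an RNA-binding protein, had 4.72, 11.2, 7.06 and 16.9, all in the order DMSO Pre, DMSO MCE, DMSO Diff and Rhein MCE.

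The other genes with a member in all 4 lists were Ahnak2, Cstf2t, Fam43a, Pcdhb16, Smcr8 and Tspyl1. Cstf2t, a paralogue of a cleavage stimulation factor that acts in polyadenylation, had scores of 7.65, 17.5, 5.99 and 6.57 over its common bases, in the same order, and another peak in Rhein MCE had 11.7. Smcr8, which works with C9orf72 in autophagy, had 12.8, 7.03, 16.6 and 9.08. Fam43a had 5.22, 20.8, 5.93 and 7.17 over 300 common bases, which hold GGAC at 7 places, and other peaks of the gene had 22.1 in DMSO Pre and 19.5 in Rhein MCE. Tspyl1 had 7.71 to 8.36 in the DMSO lists and 5.89 in Rhein MCE over 150 common bases, which hold none, and another peak in DMSO MCE had 9.88. Hnrnpa0, an RNA-binding protein of ribonucleoprotein particles, was a member in DMSO Pre (10.2 and 5.54) and Rhein MCE (126), and had rows called UTR in every list.

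Of 92 histone genes with a 1-exon coding transcript, 9 had a member, against 69 of 2764 genes with such a transcript in all: 7 in DMSO MCE, 4 in Rhein MCE, 1 in DMSO Diff and 0 in DMSO Pre. The highest score was 17.0, on Hist1h2ak in Rhein MCE, which had 14.4 in DMSO MCE. The linker histone Hist1h1b had 12.3 in DMSO MCE and 5.41 in Rhein MCE. Hist1h1c was a member in Rhein MCE alone but had a row called 3′ UTR in every list. Histone genes resemble each other, so reads of one may be placed on another, and Hist1h4b was a member through a row on the opposite strand.

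Among other families, 2 of 8 SOX genes had members, both in the clonal expansion lists, although Sox4 had UTR rows in DMSO Pre and DMSO Diff as well. Sox4, a factor of progenitor cells, had its highest member scores at 8.41 in DMSO MCE and 43.1 in Rhein MCE. Sox12 had 7.52 and 26.1. The remaining lists gave few members each, as 69 of the 2764 genes had one in all, so these counts say nothing about a family. They were 1 of 14 forkhead genes, 1 of 15 zinc finger genes (Zfp830, 5.49), 1 of 29 G protein-coupled receptors (the Wnt receptor Fzd1, up to 11.8), 1 of 25 protocadherins (Pcdhb16), 1 of 5 kelch genes (Klhl9), 1 of 7 F-box and leucine-rich repeat genes (Fbxl14), and 0 of 2 heat shock genes. Rbm15b, which helps recruit the m6A writer complex to RNA, was a member with 5 peaks in DMSO MCE and 2 in Rhein MCE, with scores of 5.41 to 15.0. Hexim1, an inhibitor of the elongation kinase P-TEFb, was a member in 3 lists, up to 11.8.

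Coding members lay along the whole coding sequence. The midpoint of 219 of 220 peaks on the transcript's own strand fell in it, and over 4 equal parts from start to stop they numbered 36, 66, 72 and 45. The median was 51.9% of the way from start to stop, and 31 lay within 200 bases of the stop codon. UTR rows are excluded by the rule, which can remove peaks near either end of the coding sequence. Neither this profile nor the position of a peak relative to the UTRs is therefore a finding. On the same 69 genes, rows called 3′ UTR numbered 29, 59, 29 and 39 in DMSO Pre, DMSO MCE, DMSO Diff and Rhein MCE, and rows called 5′ UTR numbered 8, 21, 12 and 20.

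The 155 other noncoding members were 62 on pseudogenes (45 genes), 38 on small RNAs other than snRNA (27 genes), 34 on long noncoding transcripts (14 genes) and 21 on one-exon models of spliced genes (12 genes). None of the 45 pseudogenes was in all 4 lists, and 10 were in 2 or more. A pseudogene can take reads from its spliced parent, so these peaks are uncertain in origin.

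Among the small RNAs, 16 rows lay on small nucleolar or Cajal body RNAs, 12 on microRNA annotations and 9 on 5S ribosomal RNA. Gm23344, at the site named Snord16a, had the same 68-base peak in 3 lists, with scores of 29.1 in DMSO Pre, 9.99 in DMSO Diff and 13.8 in Rhein MCE. Gm26457, at the site named Snora41, had scores of 23.4 and 15.3 in DMSO Diff and Rhein MCE. The 5S copy n-R5s110 had 11.7 in DMSO MCE and 35.3 in Rhein MCE. The microRNA annotations Gm44341, Gm44390, Gm44454 and Gm44492 carry the symbol of a histone gene or pseudogene in the lists, and their highest peak, 32.6 on Gm44341 in Rhein MCE, was on the strand opposite to the annotation.

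Of 14 long noncoding genes, 5 were in 2 or more lists. Neat1, the scaffold of paraspeckles, had scores of 22.0 in DMSO Pre, 16.1 in DMSO MCE and 6.66 in DMSO Diff, and no member in Rhein MCE. Its peaks in DMSO MCE and DMSO Diff overlapped, and that of DMSO Pre lay apart. Dnm3os, the host of Mir199a-2 and Mir214, had 14.1 in DMSO Pre and up to 9.10 in DMSO Diff, in peaks that shared no base between these lists. Gm10076 had 7.95 in DMSO Pre and 14.1 in DMSO Diff.

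Prss23os was in all 4 lists, and each list had its peaks on both strands, with the pair offset by 1 base in DMSO MCE and Rhein MCE. Gm42418, at the ribosomal locus Rn45s, likewise had peaks on both strands in DMSO Pre and DMSO Diff. Of the 9 single-exon genes on the list of well-known noncoding RNAs, Neat1 alone had a member. The highest score on a long noncoding transcript was 32.4, on Gm45667 in Rhein MCE.

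Pcdhgc3, through a one-exon model of a spliced protocadherin gene, was also in all 4 lists. Its highest scores were 15.4, 10.1, 9.23 and 9.68 in DMSO Pre, DMSO MCE, DMSO Diff and Rhein MCE. The 10.1 of DMSO MCE lay on the opposite strand, and the peak on the transcript's own strand had 9.49. DMSO Diff also had Pcdhgc3 rows on both strands. Gm4258 had 34.6 in DMSO Pre through a row spanning 31310 bases. The highest pseudogene score of DMSO MCE was 11.9, on Gm14681, and the small nucleolar RNA Gm23301 had 16.6 in DMSO Diff.

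Pairs on opposite strands were most frequent among the other noncoding members. A row overlapping another of the same list on the opposite strand was found for 19 of the 34 long noncoding members (55.9%), 30 of the 155 other noncoding members (19.4%), 41 of 534 snRNA members (7.68%) and 3 of 224 coding members (1.34%). Over all members the share was 10.1%, 5.49%, 8.40% and 9.09% in DMSO Pre, DMSO MCE, DMSO Diff and Rhein MCE, and over all peaks 4.36%, 5.42%, 4.65% and 6.35%. In all, 42 members lay on the strand opposite to their transcript, and 20 spanned more than 1000 bases, 17 of these on the opposite strand.

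Recurrence differed by class. Of the 189 members in DMSO Pre, 72 overlapped a peak on the same strand in all 3 other lists by at least 1 base, or 38.1% (31.5 to 45.2), against 19.7% of all peaks of that list. In DMSO MCE it was 68 of 255, or 26.7% (21.6 to 32.4), against 11.1%. For DMSO Diff it was 69 of 238, or 29.0% (23.6 to 35.1), against 19.2%, and for Rhein MCE 71 of 231, or 30.7% (25.1 to 37.0), against 17.9%. Members are part of the all-peak figures.

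Between single lists, the highest overlap was of DMSO Pre with DMSO Diff. Of DMSO Pre members, 52.9% overlapped DMSO MCE, 70.4% DMSO Diff and 59.3% Rhein MCE, against 45.1%, 38.5% and 36.5% of all peaks. Of DMSO MCE members, 36.9% overlapped DMSO Pre, 45.1% DMSO Diff and 51.0% Rhein MCE, against 25.0%, 26.2% and 32.3%. Every one of these 6 shares was above that of its list.

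Of DMSO Diff members, 54.2% overlapped DMSO Pre, 47.5% DMSO MCE and 59.2% Rhein MCE, against 36.3%, 46.1% and 40.3%. Of Rhein MCE members, 48.1% overlapped DMSO Pre, 55.4% DMSO MCE and 61.9% DMSO Diff, against 33.7%, 53.6% and 37.9%. The overlap with DMSO MCE was close to that of all peaks in both of these lists, and the others were higher.

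By number, snRNA copies led this recurrence. They gave 53 peaks in each list that recurred in all 3 others, or 46.5%, 43.4%, 32.7% and 39.0% of the snRNA members of DMSO Pre, DMSO MCE, DMSO Diff and Rhein MCE. Coding members gave 17 of 36 (47.2%), 14 of 93 (15.1%), 15 of 41 (36.6%) and 17 of 54 (31.5%). Other noncoding members gave 2 of 39, 1 of 40, 1 of 35 and 1 of 41. Without the snRNA copies, an alternative chosen after seeing the data, the members' share was 25.3%, 11.3%, 21.1% and 18.9%, and the interval in each list held the share of all peaks.

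Identical coordinates show how differently the classes recur. Of the snRNA peaks, 98 had the same span in DMSO Pre and DMSO Diff, and 66 to 106 did in the 5 other pairs of lists. Coding peaks had 0 to 6 identical spans per pair and other noncoding peaks 0 to 4. A copy of about 107 bases leaves little room for 2 peaks on it to miss each other, whereas a coding message is long enough for peaks to fall apart. Recurrence of snRNA peaks by overlap therefore says little more than that the same copy was called again.

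Partners of recurring coding peaks were members in 88.0% of pairs, 3′ UTR rows in 9.04% and 5′ UTR rows in 3.01%. For snRNA copies 99.2% were members. Other noncoding members were mostly seen once: 69.2%, 57.5%, 51.4% and 51.2% in DMSO Pre, DMSO MCE, DMSO Diff and Rhein MCE overlapped no other list, against 38.6%, 52.7%, 36.3% and 32.1% of all peaks.

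The GGAC core of the m6A motif separated coding from snRNA members. It was present on the peak's strand in 22 of 35 coding members of DMSO Pre (62.9%, 46.3 to 76.8), 62 of 93 of DMSO MCE (66.7%, 56.6 to 75.4), 27 of 41 of DMSO Diff (65.9%, 50.5 to 78.4) and 30 of 54 of Rhein MCE (55.6%, 42.4 to 68.0), with spans over 1000 bases left out. Exon peaks of spliced transcripts held it in 59.0%, 55.8%, 50.6% and 57.6%. That share was inside the interval of the coding members in DMSO Pre, DMSO Diff and Rhein MCE and just below it in DMSO MCE. snRNA members held it in 1 of 112, 4 of 118, 2 of 160 and 2 of 134, or 0.893%, 3.39%, 1.25% and 1.49%. Other noncoding members lay between, at 31.4%, 44.7%, 26.5% and 35.9%.

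The contrast was also present among peaks of 1 length, but this adds no independent evidence. Nearly all snRNA members lie on copies of U6, and Rnu6 lacks GGAC, so they repeat much of the same sequence. Among peaks of exactly 100 bases, snRNA members held GGAC in 0 of 105 in DMSO Pre, 2 of 108 in DMSO MCE, 0 of 151 in DMSO Diff and 0 of 125 in Rhein MCE. Peaks of the same length that were not members held it in 51 of 102, 79 of 170, 34 of 90 and 37 of 71. The broader DRACH motif was present in 94.4% to 98.2% of snRNA members and in 78.0% to 82.9% of coding members, against 85.0% to 89.8% of exon peaks of spliced transcripts. The ACAGAGA box was in 83.9% to 90.2% of snRNA members and in 3.64% to 5.38% of exon peaks of spliced transcripts. A motif in the span is a description of the letters there and places no modified base.

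**Figure D4:**
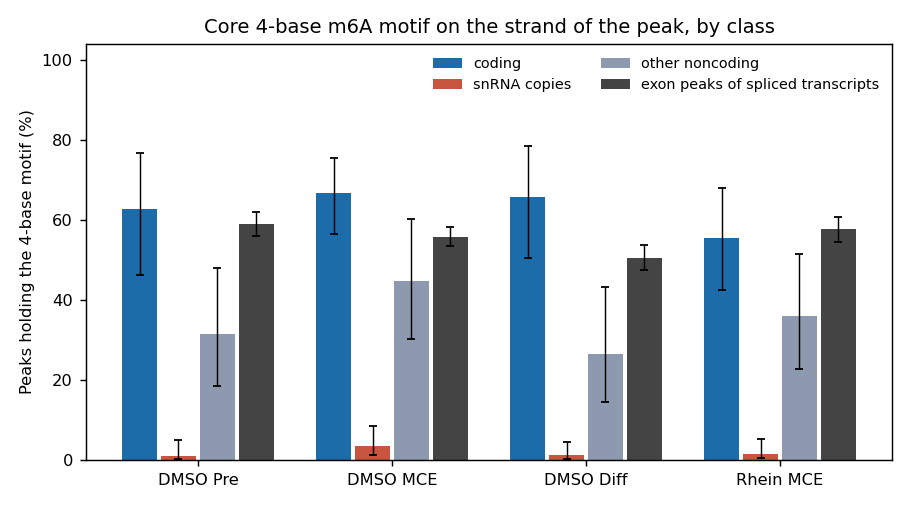
Share of peaks holding the core m6A motif in percent (y axis, with 95% Wilson intervals) for each class of member and for exon peaks of spliced transcripts in the 4 lists (x axis). Coding members lie between 55.6% and 66.7%, and snRNA members between 0.893% and 3.39%.

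Strong rows were more frequent among members than in the lists as a whole. In DMSO Pre, 9 of 189 members were above the cut, against 2.41% of all peaks. In DMSO MCE it was 21 of 255, against 1.87%, in DMSO Diff 20 of 238, against 3.46%, and in Rhein MCE 26 of 231, against 4.92%. Members made up 13.2%, 21.9%, 19.6% and 17.2% of the strong rows of each list.

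The classes behind these strong rows differed between lists. snRNA copies gave 6, 17, 15 and 10 of them and coding transcripts 2, 4, 5 and 15. Coding members outnumbered snRNA members among the strong rows of Rhein MCE alone. The 15 there lay on Cebpb (3), Gas1 (3), Cebpd (2), Cd248, Cenpb, Crebzf, Hnrnpa0, Jun, Jund and Sox4 (1 each). Of the 3 Cebpb rows, 1 was on the strand opposite to the transcript. The 4 of DMSO MCE lay on Cd248 (2), Cebpd and Gas1. With 1 immunoprecipitation per condition, a difference between these lists cannot be told apart from a difference between libraries.

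By rank within the list, from 0% at the top, the median snRNA member stood at 35.1%, 20.2%, 23.7% and 27.4% in DMSO Pre, DMSO MCE, DMSO Diff and Rhein MCE. The median coding member stood at 46.3%, 50.7%, 51.3% and 20.6%, and the median other noncoding member at 45.8%, 57.5%, 59.5% and 48.6%. As scores, coding members had medians of 8.12, 7.17, 8.15 and 12.5 in DMSO Pre, DMSO MCE, DMSO Diff and Rhein MCE, and snRNA members 9.54, 9.70, 11.3 and 10.7. Other noncoding members had 8.16, 6.93, 7.58 and 8.07. Only in Rhein MCE was the coding median above the snRNA median.

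**Figure D5:**
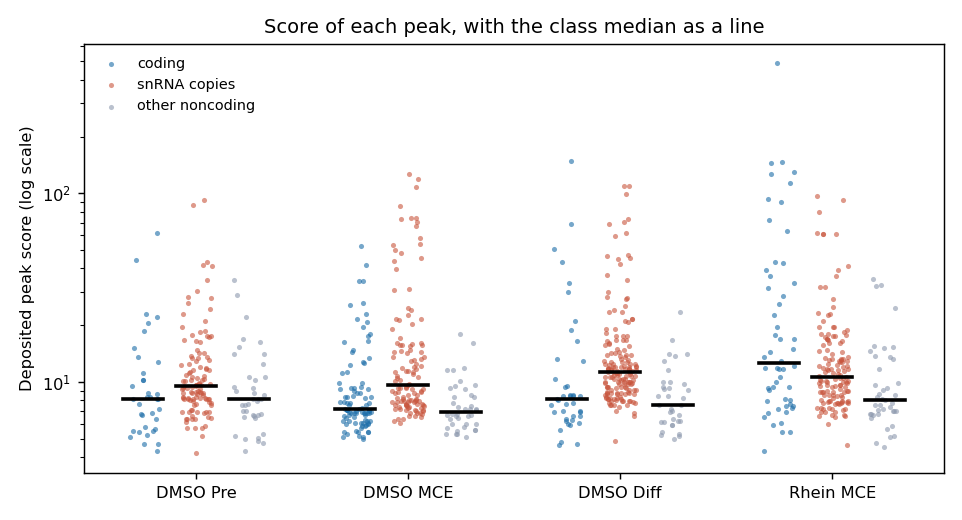
Score of every member peak (y axis, log scale) by class in each of the 4 lists (x axis), with 1 point per peak and a line at each class median. The coding median is 12.5 in Rhein MCE and 7.17 in DMSO MCE, and 15 coding members of Rhein MCE stand above a score of 33.2 against 4 of DMSO MCE.

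The gene named beside a member was often a neighbour. The listed symbol was that of the transcript's own gene for 19.6%, 34.5%, 18.1% and 19.9% of the members of DMSO Pre, DMSO MCE, DMSO Diff and Rhein MCE, so genes here were taken from the listed transcript.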

How the data were processed

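Total RNA of 3T3-L1 cells was fragmented and immunoprecipitated by the authors, and the eluate and the input were then size-selected at 40 to 60 nt and sequenced (1 immunoprecipitated and 1 input library per condition). Per the labels and the study's methods, reads were trimmed with Trim Galore 0.6.5 and aligned to mm10 (GRCm38) with HISAT2 2.1.0, alignments with a mapping quality under 30 were removed, peaks were called by exomePeak2 at default settings and annotated with ChIPseeker 1.26. The removal of ambiguous reads bears on near-identical U6 copies, and which libraries entered each call is not given in the sources used here.

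The deposited lists hold 1 value per peak, a score in a column headed log2FoldChange. It is never negative, and its lowest value in DMSO Pre, 4.19, would be an adjusted p of 0.0549 on a −log2 scale, a reading that the sources do not state. The authors' comparisons between conditions were not used.

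Classes were taken from the biotype of the listed transcript in GENCODE M21, and the exact transcript version was found for 1141 of 1144 rows of the 5 lists. U families and sequences came from RefSeq GRCm38.p6, and the sequences of U6 copies are not reported here. Edits are insertions, deletions and substitutions against Rnu6. Overlap meant at least 1 base on the same chromosome and strand. Motifs were searched on the peak's strand in spans up to 1000 bases, introns included. Python 3.11.15, pandas 2.3.3, SciPy 1.17.1 and pysam 0.24.0 were used, and the overlap, distance, interval and motif steps were tested on simulated data. Members and gene lists were chosen with earlier results of these data known. Genes were named by rule: the 3 highest scores of each list and class, genes with overlapping peaks in all 4 lists (up to 15 by summed rank), members of the gene lists, the leading copies of each U family, and long noncoding genes in 2 or more lists. Crebzf, Hexim1, Rbm15b and other genes given as examples of a count were chosen after their values were seen. Alternatives are given at the end.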

Additional observations from a re-analysis of the deposited data

How the results depend on the processing

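No paired analysis was possible because each group had 1 immunoprecipitated library and the values come from no test. Of 93 alternatives on 28 results, 53 moved the value by less than its counting interval or, for a count, by less than 1.5 times, and 40 moved it further. In this paragraph values are in the order DMSO Pre, DMSO MCE, DMSO Diff and Rhein MCE. Keeping only strong rows left 9, 21, 20 and 26 members, which was 13.2%, 21.9%, 19.6% and 17.2% of the strong rows. Of these, coding members were 2, 4, 5 and 15, snRNA members 6, 17, 15 and 10, and other noncoding members 1, 0, 0 and 1, and GGAC was present in 12.5%, 19.0%, 20.0% and 26.9%. Adding UTR rows of 1-exon transcripts gave 285, 468, 360 and 358 members. Counting every row inside a 1-exon transcript gave 458 in DMSO MCE and 357 in Rhein MCE, and moved the other lists by less than 1.5 times. The share recurring in all 3 other lists was 31.2% in DMSO Pre with 50% reciprocal overlap, and in DMSO MCE it was 36.6% with lists of equal length and 33.0% with the gene as the unit. Leaving out snRNA copies, chosen after seeing the data, gave recurrence of 25.3%, 11.3%, 21.1% and 18.9% and GGAC in 47.1%, 60.3%, 48.0% and 47.3%. Each of these alternatives changes which rows, overlaps or units count, and why the values moved was not tested. Restriction to the transcript's strand, classes taken from the peak's own strand, the Rhein Diff list, a 100-base window for GGAC, single-exon partners and removal of pairs on opposite strands stayed within those bounds. The unknown depth and the single library per condition limit every comparison between lists.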

Other observations

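U6 is transcribed from a promoter upstream of the gene, and the letters TATA were searched 10 to 40 bases upstream of each RefSeq U6 copy on the copy's strand. They were found for 33 of the 203 copies with a peak (16.3%) and 80 of the 509 without (15.7%), against 15.9% of all 712 copies. By number of lists, the share was 23.3% of the 60 copies in 1 list, 6.82% of the 44 in 2, 18.4% of the 49 in 3 and 14.0% of the 50 in 4. Among copies at 10 or fewer edits, a peak was found for 59.6% of those inside a gene on the same strand, 60.0% of those inside a gene on the opposite strand and 59.9% of those outside genes.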
